A study of Homo sapiens with 9 samples.

Results

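ERRFI1, the product of an immediate early gene that binds the EGF receptor and blocks its kinase, was followed together with 8 other feedback inhibitors of growth factor signalling (DUSP4, DUSP5, DUSP6, SPRY1, SPRY2, SPRY4, SPRED1 and SPRED2) and with EGFR itself. The 10 transcripts are 10 of the 34934 rows of the count table, selected by gene symbol. The set was chosen on a measured result, the order of ERRFI1 from primary tumour to lung to bone marrow, so the values of ERRFI1 are given as a description with no test. The tests of the other members compare the sites in pairs, and whether they share that order is given as a count of group means without a test.

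All libraries were made from TC71, an established human Ewing sarcoma line, grown in NSG mice, a strain that lacks T, B and NK cells but keeps other host cells such as macrophages and neutrophils. Mice carried subcutaneous flank tumours grown from 100 cells in Matrigel, and flow cytometry was used to collect the tumour cells once a diameter of 1.5 cm was reached. The bone marrow and the lung metastases are represented by 4 libraries each, and the primary tumour by 1. The library labels name no genotype, treatment or age of the mice, and do not say which libraries share a mouse, so the p-values below measure the spread between these libraries. The primary tumour has no replicate check: its tests assume that it varies as the metastases do.

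Growth factor receptors activate RAS and the kinases RAF, MEK and ERK, and ERK in turn induces genes that damp the same pathway. ERRFI1 acts on the receptors of the EGF family, Sprouty and SPRED proteins act around RAS and RAF, and the dual-specificity phosphatases of the DUSP family remove phosphate from ERK and related kinases. Transcripts of several of these genes are therefore used as a readout of ERK activity, although ERRFI1 is also induced by stress and by glucocorticoids.

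ERRFI1 lies on the minus strand of chromosome 1 at 8004404 to 8026308 (GENCODE release 29, hg38), and the 250 bases before its RefSeq start site are shown because they belong to the transcript that defined the pattern. They run 5′ to 3′ along the minus strand over chr1:8026310-8026559 of GRCh38.p14, and the capitals mark, in this order, a CCAAT box (here on the other strand), a GC box (GGGCGG) and an overlapping pair of TATATA matches.

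ERRFI1 promoter: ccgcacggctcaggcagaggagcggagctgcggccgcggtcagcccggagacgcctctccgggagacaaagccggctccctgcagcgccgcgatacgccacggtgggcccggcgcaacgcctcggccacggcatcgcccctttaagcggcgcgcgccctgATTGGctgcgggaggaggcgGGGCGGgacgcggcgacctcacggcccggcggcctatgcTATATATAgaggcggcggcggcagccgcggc

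Both strands were searched. The CCAAT box began 90 bases, the GC box 70 bases and the TATATA matches 31 and 29 bases before the start site. CCAAT occurs in 32.0%, GGGCGG in 42.6% and TATATA in 3.73% of the 35116 RefSeq windows, each searched over the 250 bases before its start. The windows also hold 50 bases after the start, which were not searched. The ERRFI1 window held no match to the AP-1 site TGANTCA, the cAMP response element TGACGTCA, the ETS site CCGGAAG or the CArG box, which 6.57%, 1.65%, 8.52% and 1.16% of windows hold. The RefSeq table had windows for 8 of the 10 members, and the upstream stretches of the others are not printed here.

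The libraries held between 11549807 and 17910782 estimated counts, and levels are given as CPM (counts scaled to a common library size) after TMM scaling. All 10 markers of Ewing sarcoma cells had counts, with summed levels of 2060 to 2340 CPM in bone marrow, 1770 to 2420 CPM in lung and 2580 CPM for the primary, although FLI1, the partner of EWSR1 in the fusion gene of most Ewing sarcomas, was at only 0.302, 0.115 and 0.307 CPM. Summed leukocyte markers reached 13.9 CPM in bone marrow, 23.6 CPM in lung and 4.53 CPM for the primary, with 8 of 9 markers detected and CSF1R at 0. Summed lung epithelium markers were 12.3 to 79.0 CPM in bone marrow, 3.92 to 119 CPM in lung and 30.6 CPM for the primary, with 6 of 7 detected and SCGB1A1 at 0. Red cell markers (5 of 6, ALAS2 at 0) summed to 16.6 to 99.9, 3.63 to 161 and 7.82 CPM. Endothelial markers (5 of 5) summed to 23.6 to 27.3, 25.2 to 30.0 and 23.1 CPM, and fibroblast and stromal markers (6 of 6) to 96.8 to 358, 153 to 397 and 289 CPM. None of these sums followed the ERRFI1 order without overlap of the sites. Single genes carried much of them, and a marker was taken as detected with any count in any library. CDH5 was at 22.1 to 29.5 CPM, and the next endothelial marker, PECAM1, at no more than 2.21 CPM. EPCAM ran from 0 to 115 CPM, and DCN and LUM were the highest stromal markers. Reads assigned to mouse were 7.35% to 7.75% in bone marrow, 7.0% to 8.09% in lung and 7.45% in the primary. Reads of mitochondrial ribosomal RNA did separate the sites, at 0.0956% to 0.218% in bone marrow, 0.359% to 0.491% in lung and 0.057% in the primary, an order that differs from that of ERRFI1. Their part in the results was not tested.

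The ERRFI1 transcript was lowest in bone marrow, where the 4 libraries held 32.9, 33.6, 33.9 and 23.9 CPM. The 4 lung libraries held 158, 319, 86.1 and 121 CPM, and the primary library 594 CPM. No bone marrow library reached the lowest lung library, and the primary lay above all 8 metastases, so the 3 sites did not overlap. The group means were 31.1 ± 4.78 CPM for bone marrow and 171 ± 103 CPM for lung (SD, n = 4 each), which put lung 5.50-fold above bone marrow and the primary 3.47-fold above lung. The primary was 19.1-fold above bone marrow. As fitted differences on the log2 scale, these were -2.46 ± 0.41 for bone marrow against lung, -1.80 ± 0.55 for lung against primary and -4.26 ± 0.53 for bone marrow against primary (± SE). The counts behind these levels ran from 367 to 550 in bone marrow and from 1040 to 4532 in lung, with 7739 in the primary. In bulk libraries, fewer cells holding a transcript and less of it per cell cannot be told apart. GENCODE places an antisense transcript, AL034417.4, over 909 bases at the 3′ end of ERRFI1, and whether the counting used strand is not stated in the labels.

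**Figure D1:**
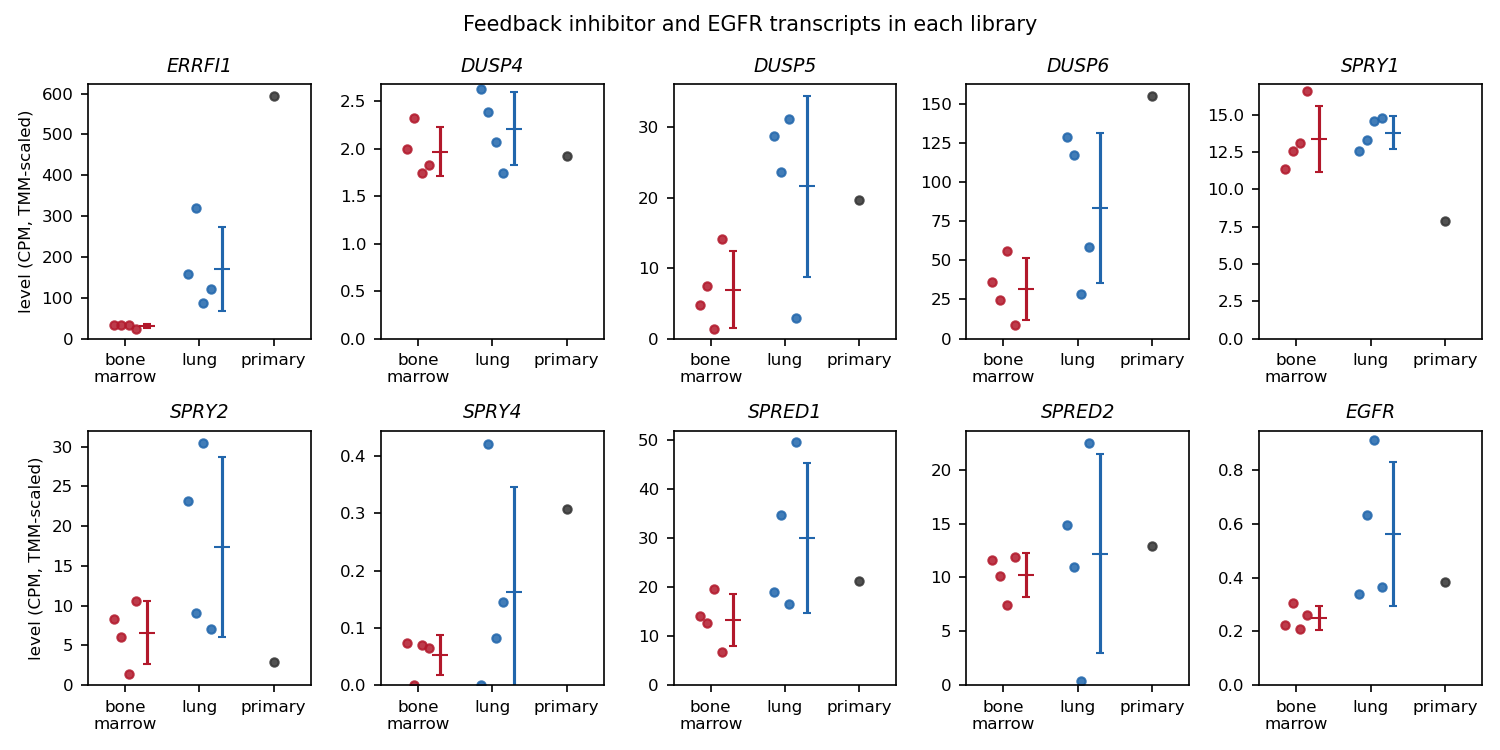
Level of each of the 10 transcripts in every library (y axis, TMM-scaled CPM, linear and separate for each gene) by site (x axis). Points are libraries and the bars beside them the mean ± SD of 4 libraries, cut off at 0. ERRFI1 forms 3 separate steps, with all bone marrow libraries between 23.9 and 33.9 CPM, while the sites overlap for DUSP6 and SPRY2.

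DUSP6, a phosphatase of the cytoplasm with a strong preference for ERK and one of the most used ERK target transcripts, came closest to ERRFI1. It was at 36.3, 24.9, 55.9 and 8.93 CPM in the bone marrow libraries, 129, 117, 28.6 and 58.2 CPM in the lung libraries and 155 CPM in the primary. The primary again lay above all 8 metastases, but lung replicate 3 fell within the bone marrow range. The means were 31.5 ± 19.7 CPM for bone marrow and 83.4 ± 48.0 CPM for lung (SD, n = 4), 2.65-fold apart, with the primary 1.86-fold above lung and 4.93-fold above bone marrow. In edgeR's quasi-likelihood test over all genes, bone marrow against lung gave -1.40 ± 0.63 (log2 fold change ± SE), with an adjusted p of 0.486. Bone marrow against primary gave -2.30 ± 0.86 with an adjusted p of 1 (unadjusted 0.025), and lung against primary -0.90 ± 0.91 with an adjusted p of 0.959 by edgeR. DUSP6 thus had the order of ERRFI1 in its means, with differences that did not pass the test. An antisense transcript, AC024909.2, overlaps DUSP6 over 2257 bases.

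DUSP5, the nuclear counterpart that dephosphorylates and anchors ERK, was at 4.81, 7.51, 1.32 and 14.1 CPM in bone marrow, with lung levels of 28.8, 23.6, 31.1 and 2.98 CPM and 19.7 CPM in the primary. In 3 of the 4 lung libraries it was above every bone marrow library, and lung replicate 4 was among the lowest of all. Its lung mean of 21.6 ± 12.8 CPM was 3.11-fold the bone marrow mean of 6.95 ± 5.43 CPM, and the log2 fold change of -1.64 ± 0.86 had an adjusted p of 0.506 by edgeR. The primary level lay inside the lung range. DUSP4, a nuclear phosphatase of ERK, JNK and p38, was low and even, between 1.74 and 2.63 CPM in all 9 libraries, with a bone marrow to lung log2 fold change of -0.16 ± 0.52 (SE). The 3 phosphatases thus differed among themselves: DUSP6 was highest in the primary, DUSP5 had its highest mean in lung, and DUSP4 varied little.

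The Sprouty transcripts did not have the ERRFI1 order where they were well measured. SPRY2, which is recruited to activated receptors and limits RAS signalling, was at 8.36, 6.10, 1.39 and 10.6 CPM in bone marrow, with lung levels of 23.2, 9.07, 30.5 and 7.05 CPM and 2.84 CPM in the primary. The primary was the second lowest of the 9 libraries, the opposite end from its place for ERRFI1. The lung mean of 17.4 ± 11.3 CPM was 2.64-fold the bone marrow mean of 6.60 ± 3.92 CPM (log2 fold change -1.40 ± 0.74, adjusted p 0.510 by edgeR). Lung against primary gave a log2 fold change of 2.61 ± 1.40 with an adjusted p of 0.873 by edgeR. SPRY1, a related inhibitor with the same conserved domain, was at 11.4, 12.6, 13.1 and 16.6 CPM in bone marrow, close to the 12.6, 13.3, 14.6 and 14.8 CPM of the lung libraries. Its lowest level of the 9 libraries was in the primary, at 7.90 CPM. Bone marrow and lung differed by a log2 fold change of -0.04 ± 0.39, and lung against primary gave 0.81 ± 0.66 with an adjusted p of 0.948 by edgeR. SPRY4 was close to the detection limit, with 0 to 1 count in bone marrow, 0, 6, 1 and 2 counts in lung and 4 in the primary, and did not pass the filter on low counts. Its CPM values, 0.307 in the primary and at most 0.422 in lung and 0.074 in bone marrow, have the ERRFI1 order in their means but rest on too few counts for a fold to be given.

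The SPRED proteins bind neurofibromin and bring it to the membrane, where it inactivates RAS. SPRED1 was at 14.1, 12.7, 19.7 and 6.71 CPM in bone marrow, with lung levels of 19.0, 34.8, 16.5 and 49.7 CPM and 21.2 CPM in the primary. Bone marrow replicate 3 overlapped the lower lung libraries, and the primary lay inside the lung range. The lung mean, 30.0 ± 15.4 CPM, was 2.25-fold the bone marrow mean of 13.3 ± 5.35 CPM, with a log2 fold change of -1.17 ± 0.52 and an adjusted p of 0.486 by edgeR. SPRED2 was at 11.6, 10.1, 7.44 and 11.9 CPM in bone marrow, with lung levels of 14.9, 11.0, 0.331 and 22.5 CPM and 12.9 CPM in the primary. Lung replicate 3 stood far below the other libraries, and the log2 fold change of bone marrow against lung was -0.25 ± 0.90. Its means followed the ERRFI1 order by small steps, 10.2 ± 2.03 CPM in bone marrow, 12.2 ± 9.24 CPM in lung and 12.9 CPM for the primary. Without lung replicate 3, and likewise without lung replicate 4, this order was lost.

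EGFR, the receptor that ERRFI1 inhibits, was barely detected in these cells. It was at 0.222, 0.305, 0.209 and 0.261 CPM in bone marrow, with lung levels of 0.339, 0.633, 0.910 and 0.363 CPM and 0.384 CPM in the primary. These levels stand for 3 to 5 counts in bone marrow, 4 to 11 in lung and 5 in the primary. In scaled CPM every lung library was above every bone marrow library, while the primary lay within the lung range. The counts themselves overlapped, with 4 in lung replicate 1 and 5 in bone marrow replicate 2. The log2 fold change of -1.14 ± 0.78 had an adjusted p of 0.620 by edgeR. EGFR passed the filter only through a lung library, so that its direction is no support for a difference, and EGFR-AS1 overlaps it over 9185 bases on the other strand.

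**Figure D2:**
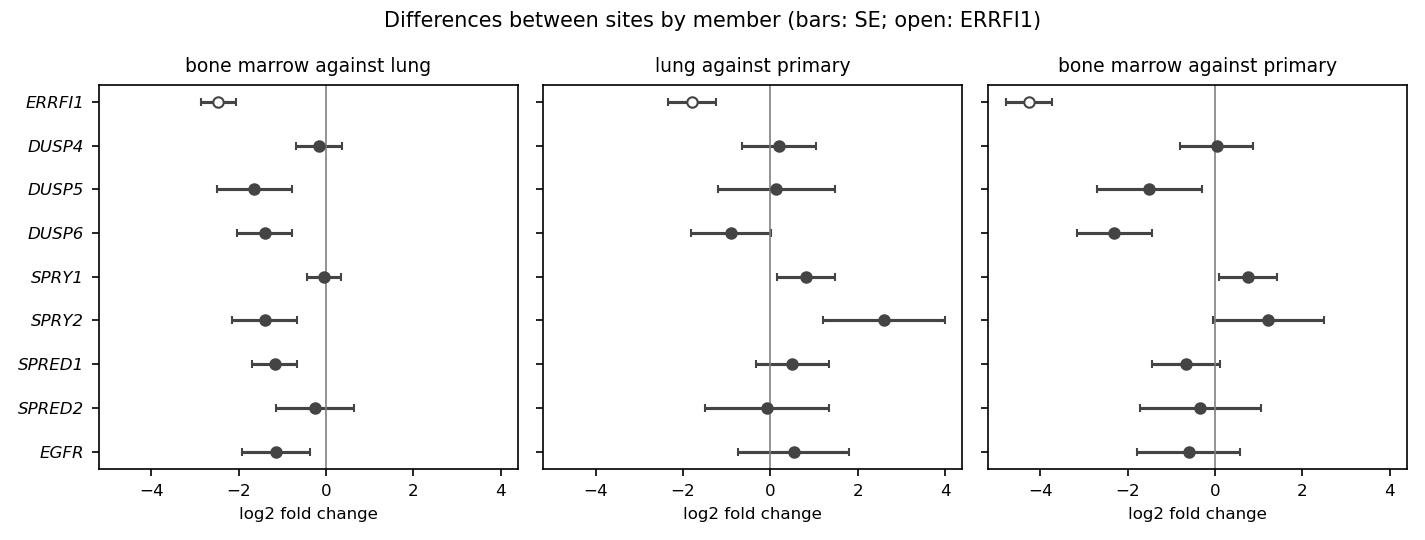
Log2 fold change (x axis) of the 9 tested members (y axis) in each of the 3 site comparisons, with bars for the SE and ERRFI1 drawn open because it was chosen on these values. ERRFI1 is negative in all 3, from -1.80 to -4.26, DUSP6 follows with -1.40, -0.90 and -2.30, and SPRY2 lies at 2.61 for lung against primary.

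Of the 9 other members, 3 had group means in the ERRFI1 order: DUSP6, SPRY4 and SPRED2. SPRY4 did not pass the filter, and of the 8 others that did, 2 had this order. Of all 17073 tested genes, 12.2% had that order of means, or 2076 genes. DUSP6 and SPRY4 also had it by medians. SPRED2 did not, and it lost the order of means without lung replicate 3 or without lung replicate 4. DUSP5, SPRED1 and EGFR were highest in lung and lowest in bone marrow, an order held by 12.4% of genes. DUSP4, SPRY1 and SPRY2 ran from lung to bone marrow to primary, which 24.7% of genes did. The stricter order, with no overlap between the 3 sites, was found for none of the 9 others and for 0.129% of all tested genes, 22 in number. The primary lay above all 8 metastases for 1 of the 9 others, DUSP6, and for 10.1% of all genes. In CPM, every lung library was above every bone marrow library for 1 of the 9, EGFR, whose counts overlapped, and for 3.06% of genes. ERRFI1 met each of these conditions, from which nothing is read since it was chosen for them.

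Between the metastatic sites the means of the members pointed 1 way. The lung mean was above the bone marrow mean for all 9 of the other members, against 49.9% of all tested genes. This count is a description: SPRY4 and EGFR rest on few counts, SPRY4 is not among the tested genes, and EGFR is tested only through its lung level. Among those past the filter, the lung to bone marrow ratio ran from 1.03 for SPRY1 to 3.11 for DUSP5. Among the 8 others that passed the filter, the median log2 fold change of bone marrow against lung was -1.16, beside 0 over all genes, also a description, since it includes EGFR. The fitted direction of SPRY1 and SPRED2 turned to 0.01 and 0.34 with limma voom, whereas no member changed direction between the metastatic sites under the other scalings. In the comparisons with the primary, which share that library and the metastases, the 8 were split: 6 were higher and 2 lower in lung than in the primary (median 0.35, all genes 0.16), and 3 were higher and 5 lower in bone marrow than in the primary (median -0.47, all genes 0.17).

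None of the 8 passed an adjusted p of 0.05 by edgeR in any of the 3 comparisons. Over all genes, edgeR called 0.00586% for bone marrow against lung, which is the 1 gene XPO5, 0% for lung against primary and 0% for bone marrow against primary. An unadjusted p under 0.05 was reached by 0 of the 8 for bone marrow against lung, where SPRED1 had 0.0509 and DUSP6 0.0513, by 0 for lung against primary and by DUSP6 alone for bone marrow against primary. The corresponding counts over all genes were 1742, 1100 and 650. DESeq2 called 468, 165 and 71 genes (3.37%, 1.3% and 0.546% of those it adjusted), and limma voom 6, 4 and 0. Neither called any of the 8, of which EGFR had no adjusted p from DESeq2. The biological coefficient of variation was 0.925.

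The genes most like ERRFI1 over the 9 libraries, by Pearson's r of log2(CPM + 1) among 9333 genes, were HMOX1 (r = 0.944), SKIL (0.931), TNFRSF12A (0.901), GEM (0.899), KLF10 (0.894) and MIDN (0.890). The points share library, depth and site, and these genes were picked for their likeness, so their levels are a description. HMOX1, the haem-degrading enzyme induced by oxidative stress, was at 0 to 2.20 CPM in bone marrow, 4.39 to 25.9 CPM in lung and 23.1 CPM for the primary. SKIL, a repressor of SMAD signalling that TGF-beta itself induces, had means of 213 ± 64.7 and 538 ± 199 CPM in bone marrow and lung and 780 CPM in the primary. TNFRSF12A, the receptor of the cytokine TWEAK, was at 3.85 to 6.66 CPM in bone marrow, with lung levels of 50.8, 121, 3.89 and 74.0 CPM and 123 CPM in the primary. Lung replicate 3, the lowest lung library for ERRFI1, was thus at the bone marrow level for TNFRSF12A. GEM, a small GTP-binding protein, had means of 42.0 ± 22.1 and 113 ± 93.4 CPM and 278 CPM in the primary. KLF10, a TGF-beta-induced transcription factor, was at 139 ± 36.8 CPM in bone marrow, 567 ± 236 CPM in lung and 535 CPM for the primary, and so lacked the last step. MIDN, which carries proteins to the proteasome, was at 17.0 to 35.4, 86.1 to 113 and 164 CPM and had no overlap between the sites.

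The members themselves ranged widely in their likeness to ERRFI1. DUSP6 had r = 0.841 and ranked 16th of the 9333 genes, followed by SPRED1 (r = 0.626, rank 199) and DUSP5 (0.516, rank 464). SPRED2 had 0.131 and SPRY2 0.020. SPRY1 ran the other way, with r = -0.560 and rank 8834. EGFR (0.450) and DUSP4 (0.285) were too low to be ranked. Over the 8 metastases alone, DUSP6 had r = 0.796 and rank 95, and of the 6 most similar genes only HMOX1 and KLF10 stayed among the first 6.

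**Figure D3:**
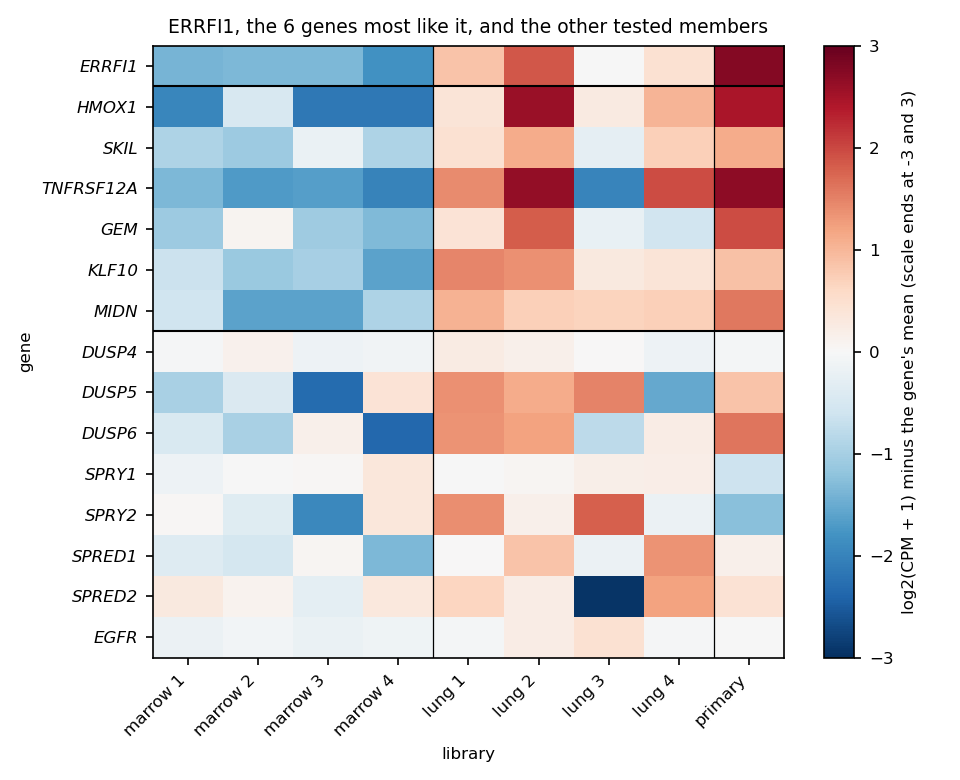
Heat map of log2(CPM + 1) minus the gene's mean over the 9 libraries, with libraries in columns and genes in rows: ERRFI1, the 6 genes most like it and the 8 other tested members. Colours end at -3 and 3. The upper rows are low in bone marrow and high in the primary, DUSP6 (r = 0.841) looks alike, and SPRY1 and SPRY2 are low in the primary.

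Receptors and ligands of the EGF family had low levels in most libraries. Of 14 genes, 12 were tested, 8 were lower and 4 higher in bone marrow than in lung (median log2 fold change -0.39), and 3 had the ERRFI1 order of means. Of all tested genes, 49.9% were higher in bone marrow than in lung and 12.2% had that order. ERBB2 was at 0.557 ± 0.933 CPM in bone marrow, 1.26 ± 1.92 CPM in lung and 1.69 CPM for the primary. ERBB3 (2.03, 2.78 and 1.23 CPM) and ERBB4 (2.13, 1.59 and 1.53 CPM) were also low, in the order bone marrow mean, lung mean and primary. Among the ligands, the neuregulin NRG1 had the highest means, 11.4 ± 6.98 CPM in bone marrow, 10 ± 7.80 CPM in lung and 13.8 CPM for the primary. AREG, or amphiregulin, was at 15.6 CPM in the primary and at 0 to 9.23 CPM in the metastases. HBEGF was at 11.6 CPM in the primary, 28.4 CPM in lung replicate 1, 2.85 CPM in bone marrow replicate 3 and at most 0.436 CPM elsewhere. EGF itself, TGFA, EREG, BTC and NRG2 had site means of at most 3.28 CPM, NRG3 and EPGN of under 0.5 CPM, and NRG4 had no counts.

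Other inhibitors of EGFR and receptor tyrosine kinases had both directions. Of 21 genes, 17 were tested, and 10 were higher and 7 lower in bone marrow (median 0.46), a split near that of all tested genes, of which 49.9% were higher. CBLB, a ubiquitin ligase that removes activated receptors, was at 8.66, 27.5, 5.56 and 19.0 CPM in bone marrow, with lung levels of 1.36, 2.18, 1.74 and 1.60 CPM and 1.76 CPM in the primary. Every bone marrow library was above every lung library, as for 2.81% of all genes. Its log2 fold change of 3.14 ± 0.66 had an adjusted p of 0.303 by edgeR and of 8.23e-05 by DESeq2. LRIG3, of a family of membrane proteins that act on ERBB receptors, likewise had no overlap, at 21.1 ± 6.65 CPM against 4.28 ± 3.15 CPM in lung and 9.82 CPM for the primary (adjusted p 0.486 by edgeR). PTPN1, a phosphatase of receptor kinases, was at 11.1 ± 9.74, 26.6 ± 19.0 and 24.0 CPM.

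The remaining MAP kinase phosphatases and RAS inhibitors were mixed, with 15 of 16 tested, 6 higher and 9 lower in bone marrow (median -0.19). RASA2, a GTPase-activating protein that switches RAS off, was at 14.5, 36.0, 26.1 and 25.0 CPM in bone marrow but at 2.71, 12.9, 1.49 and 1.02 CPM in lung, with no overlap. The primary, at 24.1 CPM, was at the bone marrow level. The log2 fold change between the metastatic sites, 2.48 ± 0.85, had an adjusted p of 0.440 by edgeR and 0.048 by DESeq2. NF1, the RAS inhibitor that SPRED proteins recruit, was at 3.91 ± 3.16 CPM in bone marrow, 1.02 ± 0.287 CPM in lung and 14.7 CPM for the primary. DUSP2, a nuclear ERK phosphatase, was at 11.4 ± 7.90, 29.8 ± 29.6 and 6.21 CPM.

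Receptors of FGF, HGF and PDGF with their adaptors were mostly higher in bone marrow, 7 of the 9 tested of 10 (median 0.95), and none had the ERRFI1 order. Of all tested genes, 49.9% were higher in bone marrow and 12.2% had that order. In 0 of the 9 was every bone marrow library above every lung library, and several of these receptors were near the detection limit. MET, the HGF receptor, was at 6.73, 20.5, 12.0 and 0.196 CPM in bone marrow, 0 to 0.774 CPM in lung and 1.92 CPM for the primary (adjusted p 0.425 by edgeR, 0.0135 by DESeq2). Bone marrow replicate 4 was at the lung level. KIT was at 27.1 ± 6.06, 13.7 ± 13.2 and 16 CPM. In the RAS to ERK cascade, with 16 of 17 genes tested, 10 were higher and 6 lower in bone marrow (median 0.17), and the adaptor SHC1 was at 14.7 ± 9.41 CPM in bone marrow, 28.1 ± 8.47 CPM in lung and 6.37 CPM for the primary (adjusted p 0.683 by edgeR).

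ERK-induced transcripts outside the chosen set were mixed between the metastatic sites, and most had a higher level in the 1 primary library. Of 9 tested, 4 were higher and 5 lower in bone marrow than in lung (median -0.28). Against the primary, 7 were lower in lung (median -0.78) and 8 lower in bone marrow (median -0.77). Of all 17073 tested genes, 7261 and 7065 were lower in these comparisons. The counts against the primary share that library, and the list was written with earlier results known, so they are a description. The ERRFI1 order of means was held by 4 of the 9, PHLDA1, EPHA2, EPHA4 and FOSL1, and by 12.2% of all tested genes. For EPHA4 it rested on lung replicate 4, at 21.1 CPM, with 0, 1.55 and 0.331 CPM in the other lung libraries. Bone marrow levels of EPHA4 were 1.32 to 8.02 CPM. EPHA2 was at 2.69 CPM in lung replicate 4 and at most 0.352 CPM in the other lung libraries. FOSL1, an AP-1 subunit that ERK stabilises, was at 0 to 2.00 CPM in bone marrow, with lung levels of 5.26, 21.7, 10.3 and 0 CPM and 27.3 CPM in the primary. PHLDA1 was at 7.21 ± 4.23, 13.5 ± 3.94 and 19.0 CPM. FOS, an immediate early gene and AP-1 subunit, ran the other way at 437 ± 130 CPM in bone marrow, 182 ± 94.7 CPM in lung and 110 CPM for the primary, with a bone marrow to lung log2 fold change of 1.26 ± 0.38 and an adjusted p of 0.399 by edgeR. The glucocorticoid-induced genes were evenly split, 4 higher and 4 lower in bone marrow (median -0.13). Among them TSC22D3 was at 13.0 to 32.8 CPM in bone marrow, 33.9 to 70.8 CPM in lung and 43.0 CPM for the primary, with no overlap of the metastatic sites, and FKBP5 at 53.6 ± 45.8, 18.6 ± 10.4 and 29.2 CPM.

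Across these 7 lists edgeR called 0 genes in each of the 3 comparisons. An unadjusted p under 0.05 was reached by 10 of the 86 tested list genes (11.6%) for bone marrow against lung, 4 (4.65%) for lung against primary and 5 (5.81%) for bone marrow against primary, beside 10.2%, 6.44% and 3.81% of all tested genes. For bone marrow against lung, DESeq2 adjusted the p-values of 77 list genes and called 3 of them (3.90%), CBLB, RASA2 and MET, all higher in bone marrow, a share near the 3.37% it called over all genes. DESeq2 called 0 of them in the other comparisons, and limma voom called 0 in all 3.

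**Figure D4:**
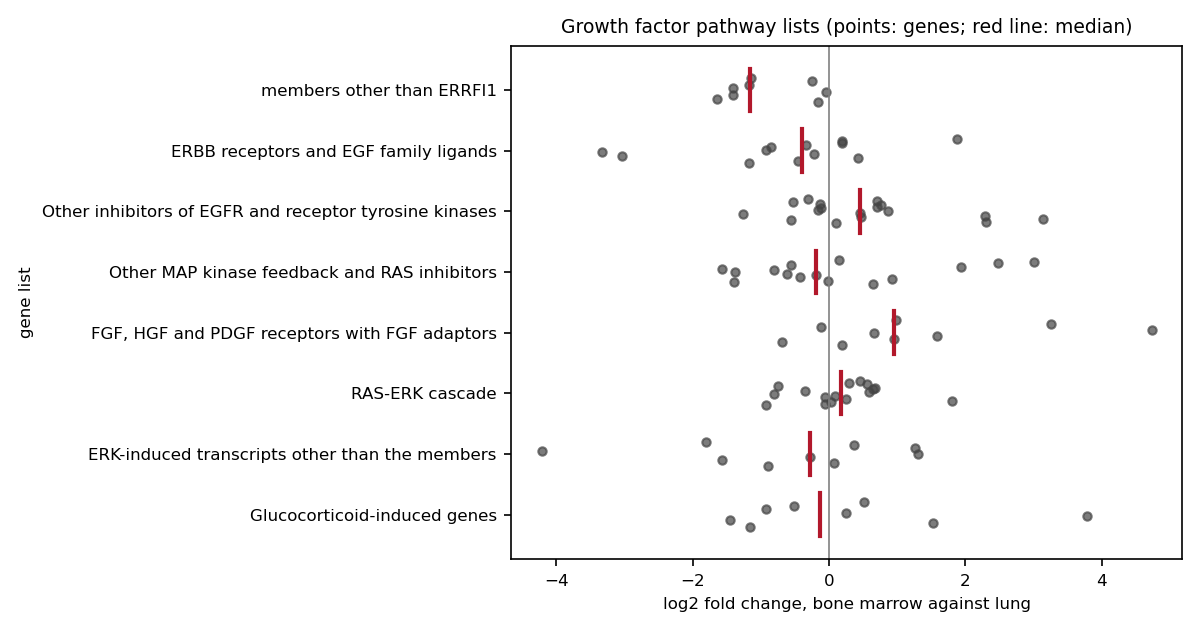
Log2 fold change of bone marrow against lung (x axis) for each tested gene (points) of the members other than ERRFI1 and of 7 growth factor pathway lists (y axis), with the median as a red line. All 8 other members lie below 0 with a median of -1.16, while the lists lie on both sides, with medians from -0.39 to 0.95. This is a description, since the members and lists were chosen with earlier results known and none of the 8 was called by edgeR. EGFR (-1.14) passed the filter only through a lung library. SPRY1 (-0.04) and SPRED2 (-0.25) turned positive with limma voom.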

How the data were processed

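RNA of sorted tumour cells was sequenced from low-input template-switching libraries, per the labels' protocols. Values in the main deposited table are estimated counts, 1 row for each gene symbol; Trim Galore, Salmon and hg38 are named, without versions, per the submitters' processing notes. A second deposited table gives the percent of reads per species and the fraction of reads per counting category. The authors' steps behind the percent and fraction values, and any use of strand, are not given in the sources used here.

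Estimated counts were rounded to whole numbers. The 12 vector rows, at most 0.0133% of a library's counts, were left out of library sizes and tests. Genes were filtered with filterByExpr (minimum count 10), which left 17073, with TMM scaling. The 3 groups were fitted together over the 9 libraries by edgeR's quasi-likelihood method (version 4.0.16, R 4.3.3), with two-sided tests, Benjamini-Hochberg adjustment over all tested genes and a threshold of 0.05. CPM are TMM-scaled, and a positive log2 fold change means higher in the site named first. The SE was derived from the log2 fold change and its F statistic (absolute change divided by the root of F). No pair of the 36 agreed within sampling noise (lowest chi-square per degree of freedom 78.7). Counting intervals were not computed. The step was run on simulated data as a check of the code, and its power at the spread of these libraries is not given here.

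The members and the gene lists were chosen with earlier results of these data known. Named genes were all members, up to 4 genes per list with an average of at least 1 CPM and the smallest unadjusted p for bone marrow against lung, all EGF family receptors and ligands, and the 6 genes most like ERRFI1 whose average log2 CPM reached 2, leaving out clone names. A gene named by this rule is not reported here. EPHA2, EPHA4 and XPO5 were named after their values were seen. Alternatives were scaling by median-ratio size factors or by library size alone, no filter, at least 5 CPM in 4 libraries, DESeq2 1.42.0, limma 3.58.1 voom with quality weights, the replicate number as a block, the 8 metastases alone, each metastasis library left out, and bone marrow replicate 1 and lung replicate 3 left out together, since they stood apart in earlier work. Promoter windows are RefSeq's on GRCh38.p14.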

Additional observations from a re-analysis of the deposited data

Results flagged for a closer look

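Among the 20 groups of 4 libraries formed by the 10 members and the metastatic sites, 2 had a library set apart from the other 3 by a gap past Dixon's 95% critical share of the group's range, and chance alone does this in about 1 group in 20. ERRFI1 in bone marrow replicate 4 was at 23.9 CPM, with the other 3 bone marrow libraries between 32.9 and 33.9 CPM, a gap of 0.894 of the range. It lies on the side away from lung. SPRY4 in bone marrow replicate 2 was at 0 CPM, with the others between 0.0652 and 0.0740 CPM, a gap of 0.881 of the range that stands for 0 counts against 1 count.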

How the results depend on the processing

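Over all genes, the 1 call of edgeR for bone marrow against lung became 3 with at least 5 CPM in 4 libraries (MCL1, SLC30A1 and XPO5), 468 with DESeq2, 6 with limma voom and 0 without bone marrow replicate 1 and lung replicate 3 together. Leaving out any 1 of the 8 metastasis libraries gave 0 (range 0 to 0). Lung against primary gave 165 calls with DESeq2 and 4 with limma voom instead of 0. Bone marrow against primary gave 71 with DESeq2 and 0 to 1 with a library left out (1 without lung replicate 2).

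With the replicate number as a block, bone marrow against lung gave 0 calls and SPRED2 had a log2 fold change of 0.38. Same-numbered libraries did not deviate together (correlations of -0.01, 0.04, -0.06 and -0.04), and only the libraries numbered 2 correlated best with each other, so the numbers were not used as pairs.

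Of 362 values of the 8 other tested members under the alternatives, 345 kept their direction and their side of the threshold and 17 changed sign, all with main values within -0.25 to 0.13. For bone marrow against lung, SPRY1 became 0.01 with limma voom, 0.05 without both libraries and -0.16 to 0.04 with 1 left out, and SPRED2 became 0.34 with limma voom and -0.65 to 0.23 with 1 left out. For lung against primary, DUSP5 became -0.37 with limma voom, -0.10 without both and -0.14 to 0.50 with 1 left out, and SPRED2 became 0.32 without both and -0.56 to 0.28 with 1 left out. DUSP4 against the primary in bone marrow became -0.10 with library size alone and -0.05 to 0.09 with 1 left out. The cause was not tested. ERRFI1 stayed between -2.71 and -1.97 for bone marrow against lung.

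The 3 other members with the ERRFI1 order of means became 2 by medians, 0 under the strict order, 2 without lung replicate 4 and 4 without lung replicate 1, and DUSP6 and SPRY4 kept the order in every setting but the strict one. Of the 6 genes most like ERRFI1, 4 were kept by Spearman's rho, 6 with a pseudocount of 0.5 CPM and 2 over the metastases alone. Depth limits SPRY4 and EGFR, with at most 11 counts a library.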
